A study of Homo sapiens with 24 samples.

Results

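FKBP5 and 9 further genes of the machinery that folds steroid receptors on HSP90 were measured as read counts in 24 RNA-seq libraries of LNCaP cells, a human line from prostate cancer that responds to androgen. The 10 genes, chosen by name among the 60649 features of the table, were the immunophilins FKBP5, FKBP4 and PPID, the chaperones HSP90AA1, HSP90AB1 and HSPA8, and the co-chaperones STIP1, PTGES3, AHSA1 and CDC37. In study 1, cells transfected with a construct for P3, a peptide of the coregulator WDR77, were set beside cells that received an empty vector (EV). In study 2, cells transfected with an siRNA against WDR77 (siWDR77) were set beside cells given a non-targeting siRNA (siCtrl). Every arm was moved to medium stripped of androgen the day after transfection, and a day later received either 5 nM R1881, a synthetic androgen, or ethanol as the vehicle for 48 h. The 8 groups, P3_R1881, P3_vehicle, EV_R1881, EV_vehicle, siWDR77_R1881, siWDR77_vehicle, siCtrl_R1881 and siCtrl_vehicle, held 3 libraries each. All of them carry a transfection, the cells come from 1 line, and the labels describe the libraries of a group as biological triplicates without saying whether they were separate transfections, so p-values measure the spread between these samples.

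Steroid receptors do not fold into a hormone-binding shape alone. HSP70 receives the new receptor, the adaptor STIP1 (HOP) hands it to an HSP90 dimer, and ATP-bound HSP90 closes around it with p23 (the product of PTGES3) and 1 of the large immunophilins FKBP5, FKBP4 or PPID, whose tetratricopeptide repeats compete for the same tail of HSP90. FKBP5 is a textbook gene induced by androgens and glucocorticoids, and its product (FKBP51) lowers hormone binding of the glucocorticoid receptor, whereas FKBP4 (FKBP52) favours receptor signalling.

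Depth was 16665915 to 24260446 counts per library, of which the 10 genes took 0.575% to 0.832%. Their counts lay between 308, for PPID, and 61975, for HSPA8, and all 10 passed the filter on low counts in both studies. The 9 luminal prostate markers examined were above 1 CPM in every library, with a summed level of 11556 to 19653 CPM in the R1881 libraries and 5551 to 6813 CPM in the vehicle libraries. Markers of leukocytes summed to at most 0.278 CPM. The 4 fibroblast markers summed to 6.45 to 21.03 CPM in the R1881 libraries and 21.2 to 34.7 CPM in the vehicle libraries, and the 3 endothelial markers to 2.50 to 12.9 and 6.59 to 18.9 CPM, lower with R1881 in each arm; the 3 basal markers summed to 2.39 to 8.81 and 0.242 to 2.95 CPM. Of the fibroblast and of the endothelial markers 1 each was above 1 CPM in every library, while COL1A2 (fibroblasts), CDH5 (endothelium) and CD3E (T cells) had no count in any; the part of these levels in the results was not tested. WDR77, the targeted gene, averaged 14.5 ± 1.19 CPM in siWDR77_R1881 and 66.9 ± 1.90 CPM in siCtrl_R1881, and 13.4 ± 1.84 CPM in siWDR77_vehicle and 45.7 ± 2.88 CPM in siCtrl_vehicle (mean ± SD, n = 3 each). In study 1 it averaged 91.7 ± 5.60 CPM in P3_R1881 and 59.8 ± 2.78 CPM in EV_R1881, but 55.7 ± 4.73 CPM in P3_vehicle and 58.9 ± 4.36 CPM in EV_vehicle, and P3 against EV was called with R1881 (log2 fold change 0.64 ± 0.067) and not with vehicle (−0.06 ± 0.068); whether transcripts of the construct were counted was not tested. One library stood apart: siCtrl_vehicle S35 had 8.4% of its counts on mitochondrially encoded genes, against 5.15% to 6.30% in the other 23, and values without it are given beside the members' R1881 results in siCtrl cells and beside other results that it moved. Every list gene named below that was called in a comparison with siCtrl_vehicle was also called without S35.

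The loci are given on GRCh38 with GENCODE 29. FKBP5 (ENSG00000096060.15) spans 35573585 to 35728583 on the minus strand of chromosome 6, and FKBP4 (ENSG00000004478.8) spans 2794953 to 2805423 on the plus strand of chromosome 12. PPID lies on chromosome 4 (158709134 to 158723396, minus strand). HSP90AA1 lies on chromosome 14 (102080738 to 102139699, minus), HSP90AB1 on chromosome 6 (44246166 to 44253888, plus) and HSPA8 on chromosome 11 (123057489 to 123063230, minus). STIP1 lies on chromosome 11 (64185272 to 64204543, plus), PTGES3 on chromosome 12 (56663341 to 56688408, minus), AHSA1 on chromosome 14 (77457870 to 77469474, plus) and CDC37 on chromosome 19 (10391134 to 10420121, minus). How strand was handled is not given in the sources used here, and the values of genes whose exons overlap a gene on the opposite strand are uncertain to that extent: HSP90AA1 shares 197 bases with WDR20, PPID shares 490 bases with ETFDH, AHSA1 shares 83 bases with VIPAS39, and FKBP4 shares exonic bases with 3 noncoding genes. Processed pseudogenes of the members drew few counts, at most 0.489% of the parent gene's count (PTGES3).

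Promoter sequences were read from RefSeq on GRCh38.p14, over the 250 bases upstream of each start site, for 15 promoters of 9 members; FKBP4 had no entry. They are shown because 3 of the members belong to the HSP90 and HSP70 families and FKBP5 is a hormone target. The sequence upstream of annotated start sites can so be read beside the values of these genes. Some of these start sites lie inside the gene spans given above. A heat shock element of 3 units was searched as GAANNTTCNNGAA or TTCNNGAANNTTC, which are each other's reverse complement and so cover both strands. It was found in 3 of the 15 promoters, which belong to HSP90AA1, HSP90AB1 and HSPA8. Near those start sites begin 1 of the 4 protein-coding transcripts of HSP90AA1, 1 of the 4 of HSP90AB1 and 3 of the 17 of HSPA8. The other promoters of HSP90AA1 and HSP90AB1 held none, and neither did any promoter of the other members searched. Of 35116 promoters of the same length, 0.441% held one. The lines below give each element in capitals with 8 bases on either side, 5′ to 3′ on the strand of the gene, at chr14:102087112-102087140 (HSP90AA1), chr6:44247770-44247798 and chr6:44247823-44247851 (HSP90AB1), and chr11:123062346-123062374 and chr11:123062171-123062199 (HSPA8).
HSP90AA1: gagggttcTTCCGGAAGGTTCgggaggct
HSP90AB1, distal: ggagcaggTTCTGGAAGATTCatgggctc
HSP90AB1, proximal: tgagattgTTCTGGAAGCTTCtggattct
HSPA8, distal: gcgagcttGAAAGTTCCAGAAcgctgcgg
HSPA8, proximal: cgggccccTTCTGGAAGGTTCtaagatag
The stretch upstream of the start site shared by 3 of the 4 protein-coding transcripts of FKBP5, at chr6:35688946-35689165 on the minus strand, held neither this element nor an androgen response element, whether searched as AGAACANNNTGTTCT (0.00285% of all promoters) or as the looser GNACANNNTGTNC (0.327%), both palindromic. Of the 250 bases searched, those from 250 to 31 upstream of the start site are printed, in lower case because no letters of them matched. Sequence outside these windows, within or around the genes, was not searched.
FKBP5: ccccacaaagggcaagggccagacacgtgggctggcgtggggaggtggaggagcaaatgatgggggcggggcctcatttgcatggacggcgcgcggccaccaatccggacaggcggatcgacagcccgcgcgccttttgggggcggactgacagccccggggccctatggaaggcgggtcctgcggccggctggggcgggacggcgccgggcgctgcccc

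In levels per kilobase of merged exons, the scale on which genes can be set beside each other, HSP90AB1 stood first and HSPA8 second among the 10 genes in all 8 groups; by the longest transcript instead, HSPA8 stood first and HSP90AB1 second in all 8 (900.1 and 702 CPM per kb in EV_R1881). In EV_vehicle cells HSP90AB1 had 784.6 CPM per kb, whereas PPID had 8.79 and FKBP5 6.90 CPM per kb, the lowest of the 10. FKBP5 was last in all 4 vehicle groups, at 8.25 CPM per kb in P3, 6.90 in EV, 3.77 in siWDR77 and 3.45 in siCtrl cells. With R1881 its level per kb stood 5th in P3 cells (93.9) and 3rd in EV (230.0), siWDR77 (280.7) and siCtrl cells (230.5), behind HSP90AB1 and HSPA8 alone in those 3. Among all 58381 features with an exon length, FKBP5 ranked 317 in P3_R1881, 114 in EV_R1881, 94 in siWDR77_R1881 and 118 in siCtrl_R1881, but 5283, 6070, 8397 and 8792 in the vehicle groups of the same arms. The other 9 genes moved far less: their highest group mean exceeded their lowest by 1.28-fold (HSPA8) to 1.59-fold (HSP90AA1), against 81.4-fold for FKBP5.

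**Figure D1:**
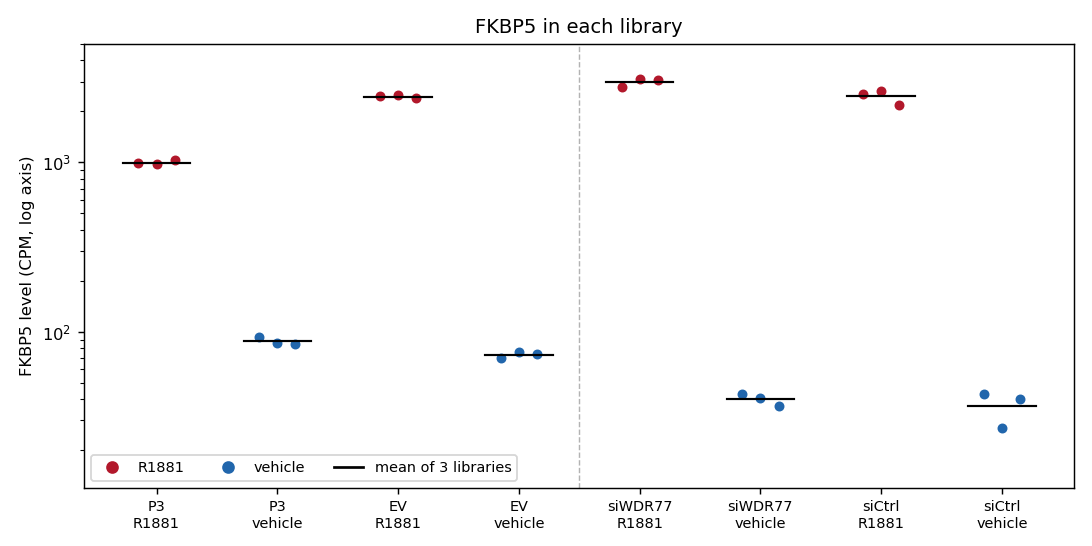
FKBP5 in each library (points, CPM on a log axis) for the 8 groups, with the mean of 3 libraries as a line; red marks R1881 and blue the vehicle. The R1881 libraries sit between 973 and 3096 CPM and the vehicle libraries between 27.0 and 92.9 CPM, with P3_R1881 the lowest of the hormone groups.

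The 10 genes were tested with all others by edgeR's quasi-likelihood F test, fitted per study; a call means a p under 0.05 after Benjamini-Hochberg adjustment over all genes. R1881 changed 3 of the 10 in P3 cells (2 higher and 1 lower), beside 21% of all 17772 genes tested (13% higher and 7.96% lower). In EV cells it changed 7 of the 10 (2 higher and 5 lower), beside 51.4% of all genes, of which 24.9% were called higher and 26.4% lower. It changed 5 of the 10 in siWDR77 cells and 5 in siCtrl cells, in both arms all higher, beside 53.2% and 51.1% of all 17893 genes tested (27.7% and 25.7% called higher). In either direction, the shares in P3 cells and in the siRNA arms were close to the background. That in EV cells was above it. The P3 count moved with the processing. It was 1 of the 10 beside 3041 of 18999 genes with all 24 libraries in 1 fit, and 5 beside 4536 of 17772 with library totals. Counting rises alone, the 5 of 10 in siWDR77 and in siCtrl cells stood above the 27.7% and 25.7% of all genes. That held under the scaling used for the tests. Under library totals FKBP4 (log2 fold change −0.39 and −0.23), HSP90AA1 (−0.41 and −0.43), HSP90AB1 (−0.18 and −0.19) and HSPA8 (−0.27 and −0.16) were called lower in siWDR77 and siCtrl cells. PPID was called lower in siWDR77 cells (−0.36). PTGES3 and AHSA1 lost their calls in both arms, and STIP1 in siWDR77 cells. Whether 10 genes differ from the background was not tested. Between the arms, P3 against EV called 6 of the 10 in vehicle (1 higher and 5 lower) beside a background of 15.8% (7.93% higher and 7.88% lower). With R1881 it called 5 of the 10 (1 higher and 4 lower) beside 37% (18.1% higher and 18.9% lower). SiWDR77 against siCtrl called 0 of the 10 in vehicle, where 1.53% of all genes were called and 1 member had an unadjusted p under 0.05, and 1 with R1881, lower, where 7.22% of all genes were called and 3.31% were lower. The response to R1881 differed between P3 and EV cells for 4 of the 10 (1 smaller, 3 shifted upward), beside 22.6% of all genes (11.5% upward and 11.1% downward). It differed between siWDR77 and siCtrl cells for 0 of the 10 and for 0% of all genes, with no member and 1484 genes at an unadjusted p under 0.05, and 54 genes called by DESeq2. The median log2 fold change with R1881 was 0.01 over the 10 members and −0.02 over all genes in P3 cells, −0.14 and −0.04 in EV cells, 0.20 and −0.02 in siWDR77 cells, and 0.21 and −0.04 in siCtrl cells. The comparisons within a study share libraries, so they are not independent of each other.

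In these bulk libraries fewer cells of a kind and less RNA per cell cannot be told apart. They also need a scaling, and its choice moves small changes. Under TMM, the scaling used for the tests, the median log2 fold change of all genes was within 0.05 of 0 in each of these comparisons. Scaling by library totals shifted that median to −0.11 for R1881 in P3 cells, −0.21 in EV cells, −0.31 in siWDR77 cells and −0.31 in siCtrl cells, and to 0.06 for P3 against EV in vehicle and 0.18 with R1881. The split of calls moved with it: by totals 1609 genes were higher and 2927 lower with R1881 in P3 cells (2312 and 1414 under TMM), 3091 and 6930 in EV cells (4432 and 4698), 2775 and 8096 in siWDR77 cells (4951 and 4567), and 2669 and 7810 in siCtrl cells (4601 and 4542). For P3 against EV it moved to 2104 higher and 385 lower in vehicle (1409 and 1400) and to 5654 and 1688 with R1881 (3212 and 3360), and for the change of the response by P3 to 2930 and 1462 (2042 and 1971). Changes are therefore reported relative to the median gene. A member whose call turned under library totals, or whose direction turned with a call under either scaling, is given with its value there.

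FKBP5, the immunophilin induced by the hormone, was the member that moved most. Its libraries had 1033, 986 and 973 CPM in P3_R1881, against 84.5, 92.9 and 85.8 CPM in P3_vehicle. In EV cells they had 2487, 2454 and 2391 CPM with R1881, against 69.7, 76.3 and 74.2 CPM with vehicle. No R1881 library came near any vehicle library, and the P3_R1881 libraries lay between those of P3_vehicle and EV_R1881. The hormone raised FKBP5 11.6-fold in P3 cells (log2 fold change 3.53 ± 0.053, SE, adjusted p = 6.58e-38) and 33.6-fold in EV cells (5.07 ± 0.057, adjusted p = 6.4e-43). By log2 fold change it ranked 27th in P3 and 46th in EV cells among the 17772 genes tested.

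FKBP5 differed between P3 and EV cells in opposite directions with hormone and with vehicle. With R1881, FKBP5 was 2.41-fold lower in P3 cells than in EV cells (log2 fold change −1.27 ± 0.048, adjusted p = 1.6e-22), the 116th lowest value of 17772 genes. With vehicle it was 1.21-fold higher in P3 cells (0.27 ± 0.052, adjusted p = 0.00028), and the lowest P3_vehicle library, at 84.5 CPM, stood above the highest EV_vehicle library, at 76.3 CPM. The difference between the 2 responses was −1.54 ± 0.071 on the log2 scale, a response 2.91-fold smaller in P3 cells (adjusted p = 4.87e-20). Each of these directions was kept under library totals, at −1.11, 0.35 and −1.46. The small excess in vehicle lost its call when all 24 libraries were fitted together (0.26, adjusted p = 0.136).

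In study 2 FKBP5 had 2784, 3096 and 3070.1 CPM in siWDR77_R1881, against 36.7, 42.8 and 40.8 CPM in siWDR77_vehicle. In siCtrl cells it had 2191, 2538 and 2621 CPM with R1881, against 39.9, 43.0 and 27.0 CPM with vehicle, the last being S35. All hormone libraries of both arms lay above all vehicle libraries, and the 3 siWDR77_R1881 libraries lay above the 3 of siCtrl_R1881. The rise with R1881 was 74.2-fold in siWDR77 cells (6.21 ± 0.18, adjusted p = 4.25e-10) and 66.7-fold in siCtrl cells (6.06 ± 0.18, adjusted p = 5.73e-10). Without S35, whose FKBP5 was the lowest of all 24 libraries, the rise in siCtrl cells was 58.7-fold (5.88 ± 0.095).

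Knockdown of WDR77 gave no called difference in FKBP5. With R1881 the log2 difference of siWDR77 against siCtrl was 0.29 ± 0.14 (95% interval 0.01 to 0.56, adjusted p = 0.283), although the libraries did not overlap. With vehicle it was 0.13 ± 0.16 (−0.17 to 0.44, adjusted p = 0.815), and without S35 it was −0.04 ± 0.080. The change of the response was 0.15 ± 0.21 (−0.25 to 0.56, adjusted p = 0.897), and 0.31 ± 0.10 without S35 (adjusted p = 0.309). The intervals reach changes of about the size P3 gave in vehicle, and the interval for the response does not reach the −1.54 by which P3 changed it. With only the 6 R1881 libraries in the fit, FKBP5 was called higher in siWDR77 cells (0.27, adjusted p = 0.0154).

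Ordered by mean, FKBP5 stood at 2983 ± 173 CPM in siWDR77_R1881, 2450.0 ± 228 in siCtrl_R1881, 2444 ± 48.5 in EV_R1881, 998 ± 31.4 in P3_R1881, 87.7 ± 4.5 in P3_vehicle, 73.4 ± 3.33 in EV_vehicle, 40.1 ± 3.12 in siWDR77_vehicle and 36.7 ± 8.48 CPM in siCtrl_vehicle. The neighbours siCtrl_R1881 and EV_R1881 overlapped, as did siWDR77_vehicle and siCtrl_vehicle, and the other neighbours did not. The vehicle levels of study 1 lay above those of study 2; between the studies the kind of transfection and the study itself cannot be told apart.

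FKBP4, the paralog of FKBP5 that favours receptor signalling, went the other way in EV cells. It had 312, 325 and 326 CPM in EV_R1881, against 407, 405 and 420.2 CPM in EV_vehicle, without overlap, and fell by 0.34 ± 0.050 on the log2 scale (adjusted p = 2.58e-07). In P3 cells it had 336, 351 and 339.9 CPM with R1881 and 335, 382 and 382 CPM with vehicle, overlapping sets with a difference of −0.07 ± 0.050 (adjusted p = 0.343), which library totals made a called −0.16 (adjusted p = 0.00707). The 2 responses differed by 0.27 ± 0.071 (adjusted p = 0.00464). In vehicle FKBP4 was lower in P3 than in EV cells (−0.15 ± 0.050, adjusted p = 0.0416), a call lost under library totals (−0.07, adjusted p = 0.36), with all 24 libraries in the fit (adjusted p = 0.053), with only the 6 libraries compared (adjusted p = 0.0944) and when EV_vehicle S1, S15 or S29 or P3_vehicle S5 was left out (adjusted p from 0.0671 to 0.265). With R1881 its P3 libraries lay above its EV libraries without a call (0.12 ± 0.050, adjusted p = 0.0585), a call made by library totals (0.28), by the fit of only the 6 libraries (0.13) and by the replicate block (0.12). In study 2 its means were 264 ± 13.7 CPM in siWDR77_R1881 and 282 ± 11.5 in siWDR77_vehicle, 299.5 ± 6.41 in siCtrl_R1881 and 291 ± 27.1 CPM in siCtrl_vehicle, with no call in any comparison. The siCtrl difference of 0.04 was −0.04 without S35 and turned to a called −0.23 under library totals, and the −0.10 of siWDR77 cells to a called −0.39. For siWDR77 against siCtrl with R1881, FKBP4 was called lower with all 24 libraries in the fit (−0.18, adjusted p = 0.0438) and with only the 6 compared (−0.19, adjusted p = 0.0123).

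The balance of the 2 FKBP paralogs was taken as the ratio of FKBP5 to FKBP4 counts in each library, which needs no scaling between libraries and is not corrected for length. It averaged 2.92 ± 0.143 in P3_R1881 and 0.240 ± 0.0140 in P3_vehicle, a 12.2-fold difference. It averaged 7.62 ± 0.328 in EV_R1881 and 0.179 ± 0.00875 in EV_vehicle, 42.6-fold apart. In siWDR77 cells the ratio was 11.3 ± 1.09 with R1881 and 0.142 ± 0.00779 with vehicle (79.5-fold), and in siCtrl cells 8.17 ± 0.602 and 0.125 ± 0.0188 (65.9-fold, and 60.2-fold without S35). FKBP4 therefore gave more reads than FKBP5 in every vehicle library and fewer in every R1881 library. Between arms with R1881, the ratio was 2.61-fold lower in P3 than in EV cells and 1.38-fold higher in siWDR77 than in siCtrl cells, each without overlap. With 3 libraries a side an exact permutation test cannot go below a two-sided p of 0.1, which all of these reached (0.16 adjusted over 16 ratio tests). With vehicle the ratio was 1.34-fold higher in P3 than in EV cells (exact p = 0.1), and siWDR77 and siCtrl overlapped (exact p = 0.2).

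**Figure D2:**
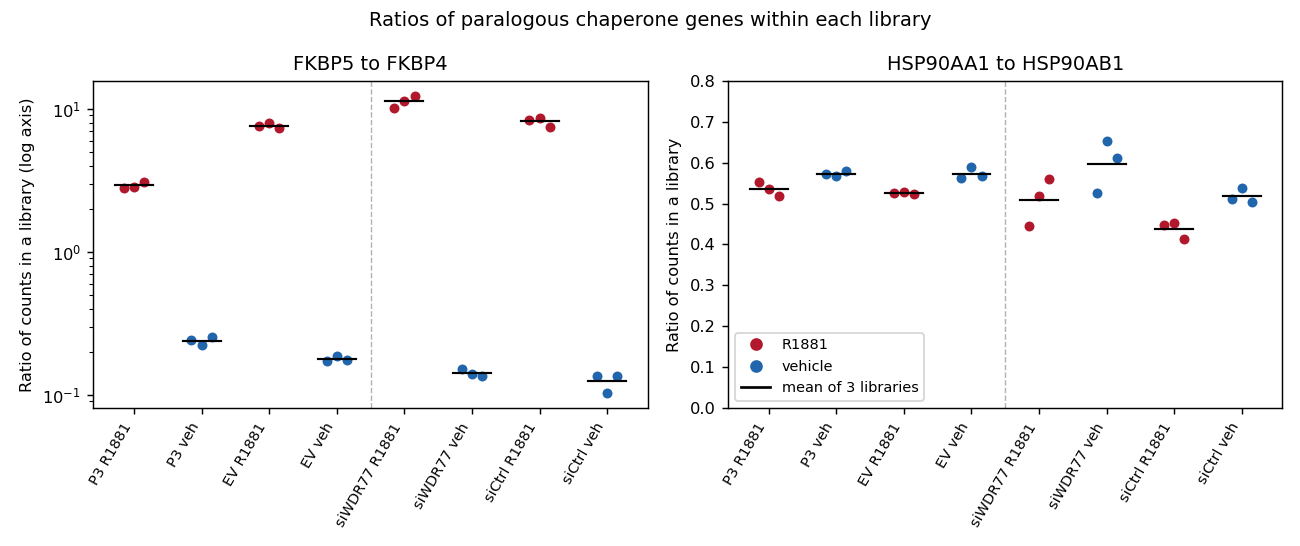
Ratio of FKBP5 to FKBP4 counts and ratio of HSP90AA1 to HSP90AB1 counts in each library (points; the first on a log axis), with the mean of 3 libraries per group as a line. The first ratio averages 2.92 in P3_R1881 and 7.62 in EV_R1881 but 0.240 and 0.179 in the vehicle groups, whereas all means of the second lie between 0.438 and 0.597.

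PPID (cyclophilin 40), the other receptor immunophilin, was the least abundant member by counts, at 16.2 to 25.2 CPM over all libraries. It was called in 1 comparison, P3 against EV with R1881, where it had 22.1, 25.2 and 22.6 CPM in P3 cells, against 20.2, 18.4 and 19.9 CPM in EV cells. The libraries did not overlap, and PPID was 1.22-fold higher (log2 fold change 0.29 ± 0.097, adjusted p = 0.0183). The call was lost without EV_R1881 S16 (adjusted p = 0.0953) or P3_R1881 S20 (adjusted p = 0.162). R1881 gave no call for PPID in any arm. In siCtrl cells its difference was 0.06 ± 0.10, and −0.0013 ± 0.11 without S35. Over the alternatives that difference lay between −0.20 and 0.12 and was never called. Under library totals PPID was called lower with R1881 in EV cells (−0.34, adjusted p = 0.003) and in siWDR77 cells (−0.36, adjusted p = 0.0057).

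The cytosolic HSP90 genes, HSP90AA1 (the more inducible alpha form) and HSP90AB1 (the constitutive beta form), fell with hormone in EV cells. HSP90AA1 had 936, 1040.2 and 979 CPM in P3_R1881, against 1040.3, 1183 and 1121 CPM in P3_vehicle. In EV cells it had 1006, 998 and 956 CPM with R1881, against 1315, 1383 and 1324 CPM with vehicle. The EV sets lay far apart, whereas the highest P3_R1881 library nearly touched the lowest P3_vehicle library. HSP90AA1 fell by 0.15 ± 0.049 in P3 cells (adjusted p = 0.0193), a call lost without P3_R1881 S6 (adjusted p = 0.141) or P3_vehicle S19 (adjusted p = 0.155) and with all 24 libraries in the fit (adjusted p = 0.0607), and by 0.43 ± 0.049 in EV cells (adjusted p = 9.27e-10), on the log2 scale. The responses differed by 0.27 ± 0.069 (adjusted p = 0.00297).

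HSP90AB1 had 1803, 1885 and 1831 CPM in P3_R1881, against 1793, 2069 and 1978 CPM in P3_vehicle. In EV cells it had 1906, 1899.7 and 1827 CPM with R1881, against 2338, 2344 and 2333 CPM with vehicle. The P3 sets overlapped (−0.06 ± 0.047, adjusted p = 0.454; a called −0.14 under library totals), while the EV sets did not, with a fall of 0.30 ± 0.047 (adjusted p = 7.34e-07). The responses differed by 0.24 ± 0.066 (adjusted p = 0.00551). With vehicle, P3 was below EV for HSP90AA1 (−0.25 ± 0.049, adjusted p = 0.000462) and HSP90AB1 (−0.25 ± 0.047, adjusted p = 0.000297). With R1881 P3 and EV cells gave differences of 0.02 ± 0.049 for HSP90AA1 (95% interval −0.07 to 0.12) and −0.00282 ± 0.047 for HSP90AB1 (−0.09 to 0.09). Library totals made both of these called and positive, at 0.18 and 0.16, and kept the direction and the calls of the falls in EV cells, of the vehicle differences and of the differences in response.

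In study 2 neither HSP90 gene was called in any comparison, but HSP90AA1 in siCtrl cells stood close to the threshold. HSP90AA1 had 793, 963 and 978 CPM in siWDR77_R1881 and 992, 905 and 1059.6 CPM in siWDR77_vehicle, which overlapped. It had 784, 859 and 882 CPM in siCtrl_R1881 and 931, 992 and 905 CPM in siCtrl_vehicle, which did not overlap but gave no call (−0.17 ± 0.075, adjusted p = 0.0724; −0.20 without S35, adjusted p = 0.0737). It was called lower there with all 24 libraries in the fit (adjusted p = 0.0377), with no filter (0.0263), with only the 6 libraries compared (0.0316) and with the replicate block (0.0441). Library totals made HSP90AA1 called lower with R1881 in both arms (−0.41 in siWDR77 and −0.43 in siCtrl cells). HSP90AB1 averaged 1793 ± 54.8 CPM in siWDR77_R1881 and 1655 ± 57.8 in siWDR77_vehicle, and 1920.1 ± 28.7 in siCtrl_R1881 and 1823 ± 131 CPM in siCtrl_vehicle. Its differences with hormone, 0.11 and 0.07 (0.01 without S35), turned to a called −0.18 and −0.19 under library totals. For siWDR77 against siCtrl in vehicle HSP90AB1 gave −0.14 ± 0.058 (adjusted p = 0.292); without S35 it was called lower (−0.19, adjusted p = 0.0395).

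The ratio of HSP90AA1 to HSP90AB1 counts, which no scaling touches, was lower with R1881 in each arm. It averaged 0.535 ± 0.0162 in P3_R1881 and 0.573 ± 0.00681 in P3_vehicle, and 0.525 ± 0.00245 in EV_R1881 and 0.573 ± 0.0148 in EV_vehicle. In siCtrl cells it averaged 0.438 ± 0.0206 with R1881 and 0.518 ± 0.0185 with vehicle, a log2 difference of −0.24, or −0.21 without S35. These 3 arms showed no overlap (exact permutation p = 0.1, the smallest possible, 0.16 adjusted). In siWDR77 cells the ratio averaged 0.509 ± 0.0582 with R1881 and 0.597 ± 0.0653 with vehicle, with overlap (exact p = 0.2). P3 and EV cells hardly differed in this ratio, by 0.03 with R1881 and −0.000807 with vehicle on the log2 scale, both overlapping.

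**Figure D3:**
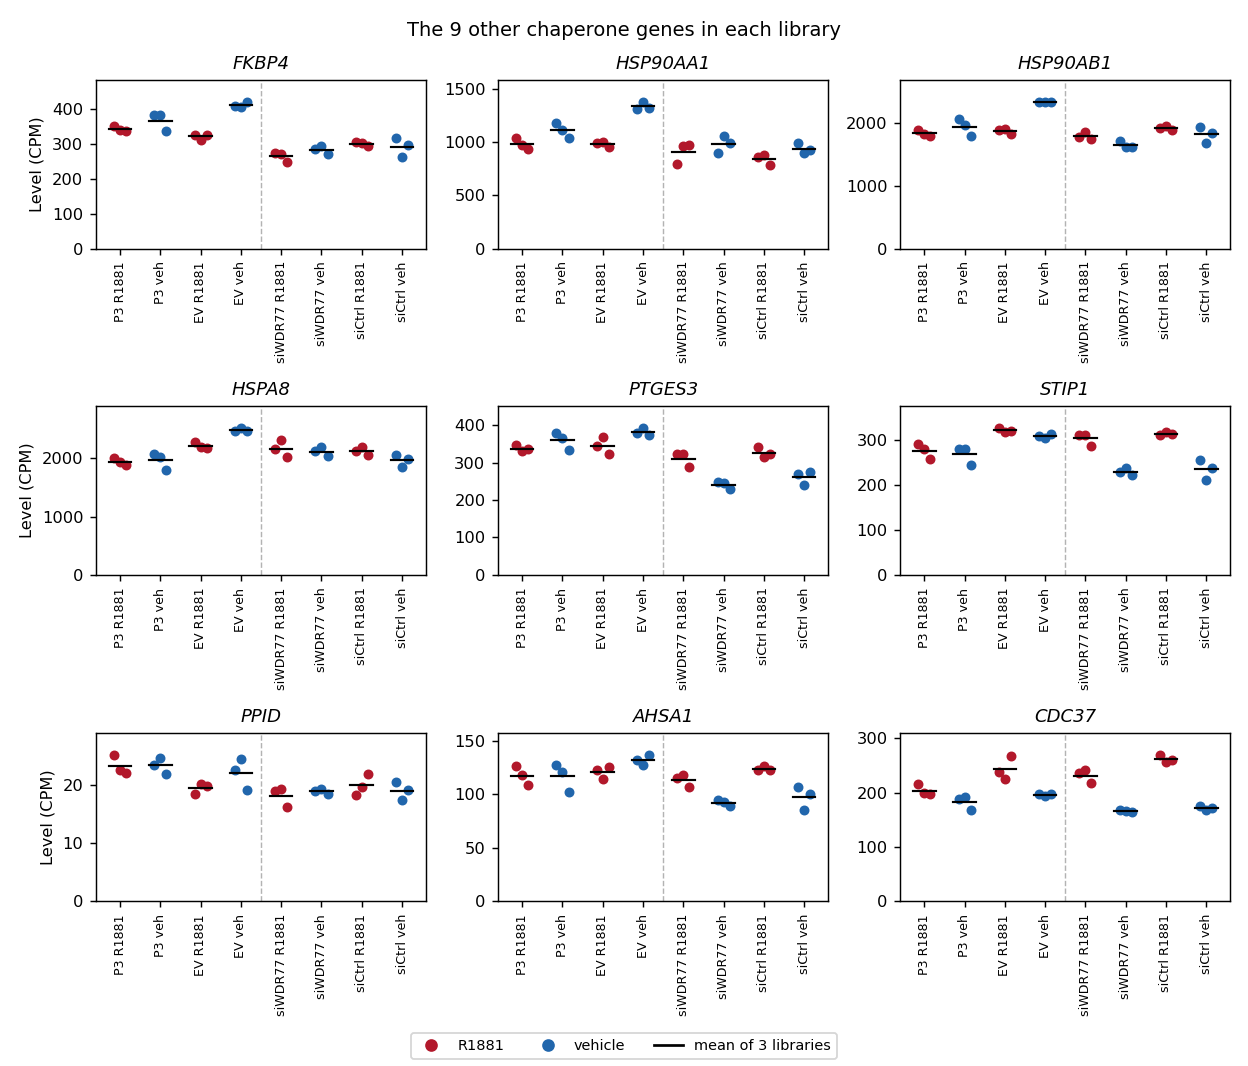
Levels of the 9 members other than FKBP5 in each library (points, CPM), with the mean of 3 libraries per group as a line. EV_vehicle is the highest group for HSP90AA1, HSP90AB1, HSPA8, FKBP4, PTGES3 and AHSA1. The mean of CDC37, and that of STIP1, is higher in each R1881 group than in the vehicle group of the same arm.

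HSPA8, the constitutive cytosolic HSP70 that takes in the client, was lower in P3 than in EV cells under both media. It had 1884, 1995 and 1933 CPM in P3_R1881, against 2195, 2281 and 2175 CPM in EV_R1881. In vehicle it had 1791, 2075 and 2024 CPM in P3 cells, against 2463, 2514 and 2467 CPM in EV cells. Neither pair of sets overlapped, and HSPA8 was 1.12-fold lower in P3 than in EV cells with R1881 (−0.17 ± 0.048, adjusted p = 0.00496) and 1.25-fold lower with vehicle (−0.32 ± 0.048, adjusted p = 8.26e-06). Under library totals the call with R1881 was lost (−0.01, adjusted p = 0.89) and that with vehicle kept (−0.24). R1881 lowered it in EV cells by 0.15 ± 0.048 on the log2 scale (adjusted p = 0.00966), and by 0.32 under library totals, more than either difference between the arms under that scaling. The change of its response by P3 was 0.15 ± 0.068 (adjusted p = 0.108), which library totals (0.23, adjusted p = 0.0027) and the replicate block (adjusted p = 0.0383) called. In P3 cells its hormone difference was 0.01 ± 0.048, and in siWDR77 and siCtrl cells 0.03 ± 0.060 and 0.11 ± 0.060 (0.06 without S35), none called; under library totals these turned to −0.08, −0.27 and −0.16, the siWDR77 and siCtrl values called.

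STIP1 (HOP), the adaptor between HSP70 and HSP90, rose with hormone in study 2. It had 312, 313 and 287 CPM in siWDR77_R1881, against 223, 230.4 and 237 CPM in siWDR77_vehicle. In siCtrl cells it had 313, 311 and 318 CPM with R1881, against 239, 255 and 213 CPM with vehicle. No R1881 library overlapped a vehicle library, and the rises were 1.32-fold in siWDR77 cells (0.40 ± 0.061, adjusted p = 5.23e-06) and 1.33-fold in siCtrl cells (0.41 ± 0.061, adjusted p = 3.93e-06), or 0.34 without S35 in siCtrl cells. Under library totals they were 0.10 (adjusted p = 0.16) and 0.15 (adjusted p = 0.049). In study 1 the hormone gave 0.07 ± 0.053 in P3 cells and 0.08 ± 0.053 in EV cells, neither called, which became −0.02 and −0.09 under library totals. STIP1 was lower in P3 than in EV cells with R1881 (−0.19 ± 0.053, adjusted p = 0.00353) and with vehicle (−0.18 ± 0.053, adjusted p = 0.0144); both calls were lost under library totals, at −0.03 and −0.10, and the vehicle call also without EV_vehicle S1 or S29 or P3_vehicle S5 (adjusted p from 0.0685 to 0.127).

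PTGES3 (p23), which holds HSP90 closed on the receptor, showed the same split between the studies. It had 322, 322 and 288 CPM in siWDR77_R1881, against 230.2, 248 and 244 CPM in siWDR77_vehicle. In siCtrl cells it had 321, 341 and 314 CPM with R1881, against 275, 269 and 239 CPM with vehicle. The hormone libraries lay above the vehicle libraries in both arms, and PTGES3 rose 1.29-fold in siWDR77 cells (0.36 ± 0.062, adjusted p = 2.29e-05) and 1.25-fold in siCtrl cells (0.32 ± 0.062, adjusted p = 0.00014), or by 0.25 on the log2 scale without S35. Library totals left 0.07 and 0.05, neither called. In EV cells it was called slightly lower with R1881 (−0.13 ± 0.053, adjusted p = 0.0346), a call that DESeq2 (adjusted p = 0.13), RLE scaling (adjusted p = 0.117) and the fit of only the 6 libraries compared (adjusted p = 0.0634) did not make, and that was lost without any 1 of the libraries compared other than EV_R1881 S2 (adjusted p from 0.0661 to 0.196). The P3 sets overlapped (−0.07 ± 0.052). Under library totals PTGES3 was called lower with R1881 in both P3 cells (−0.15, adjusted p = 0.0162) and EV cells (−0.30), and higher in P3 than in EV cells with R1881 (0.15, adjusted p = 0.0106, against −0.00575 under TMM).

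AHSA1, which speeds the ATPase of HSP90, had 115, 118 and 106 CPM in siWDR77_R1881, against 89.5, 94.7 and 92.5 CPM in siWDR77_vehicle. It had 123, 122 and 126 CPM in siCtrl_R1881, against 100.2, 107 and 85.6 CPM in siCtrl_vehicle. Both pairs were without overlap, with rises of 0.29 ± 0.069 (adjusted p = 0.000792) and 0.34 ± 0.069 (adjusted p = 0.000172, 0.25 without S35). Under library totals the first turned to −0.00199 and the second fell short of a call, at 0.08. In study 1 AHSA1 was called in no comparison by the test used throughout: its means were 117 ± 8.83 CPM in P3_R1881, 117 ± 13.0 in P3_vehicle, 120.4 ± 5.88 in EV_R1881 and 132 ± 4.91 CPM in EV_vehicle. Library totals called 3 of these comparisons: R1881 in EV cells (−0.28, adjusted p = 0.000122, against −0.11 under TMM), P3 against EV with R1881 (0.15, adjusted p = 0.0463, against −0.01) and the change of the response by P3 (0.23, adjusted p = 0.0429, against 0.15). For P3 against EV with vehicle (−0.16 ± 0.064, adjusted p = 0.0867), AHSA1 was called lower with no filter (adjusted p = 0.0417), with the replicate block (adjusted p = 0.0162) and without P3_vehicle S19 (−0.23).

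CDC37, the co-chaperone that brings kinases to HSP90, was with FKBP5 the member that rose with R1881 in all 4 arms. It had 197, 216 and 199 CPM in P3_R1881, against 168, 188 and 192 CPM in P3_vehicle. In EV cells it had 226, 238 and 267 CPM with R1881, against 198, 194 and 198 CPM with vehicle. The sets did not overlap in either arm, and in P3 cells they were only a few CPM apart. The log2 fold changes were 0.18 ± 0.057 in P3 cells (adjusted p = 0.0174) and 0.33 ± 0.057 in EV cells (adjusted p = 5.65e-06). The P3 call was lost without P3_R1881 S20 (adjusted p = 0.212) or P3_vehicle S5 (adjusted p = 0.115), with all 24 libraries in the fit (adjusted p = 0.0563), and under library totals (0.09, adjusted p = 0.2), which kept the EV call (0.16).

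In study 2 CDC37 had 236, 241 and 217 CPM in siWDR77_R1881, against 165, 169 and 166 CPM in siWDR77_vehicle. It had 259, 269.9 and 256 CPM in siCtrl_R1881, against 172, 176 and 169 CPM in siCtrl_vehicle. All hormone libraries lay well above the vehicle libraries, at 1.39-fold in siWDR77 cells (0.47 ± 0.054, adjusted p = 5.86e-08) and 1.52-fold in siCtrl cells (0.60 ± 0.054, adjusted p = 1.01e-09), and both calls were kept under library totals (0.18 and 0.34) and, in siCtrl cells, without S35 (0.58). It was the only member called between the siRNA arms, 1.13-fold lower in siWDR77 than in siCtrl cells with R1881 (−0.18 ± 0.054, adjusted p = 0.0465), and leaving out any 1 of the 6 libraries compared lost that call (adjusted p from 0.057 to 0.207). The response itself did not differ by a call (−0.13 ± 0.076, adjusted p = 0.695). Between P3 and EV cells with R1881, CDC37 was 1.17-fold lower in P3 cells (−0.23 ± 0.057, adjusted p = 0.00133); under library totals that difference was −0.07 (adjusted p = 0.31).

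**Figure D4:**
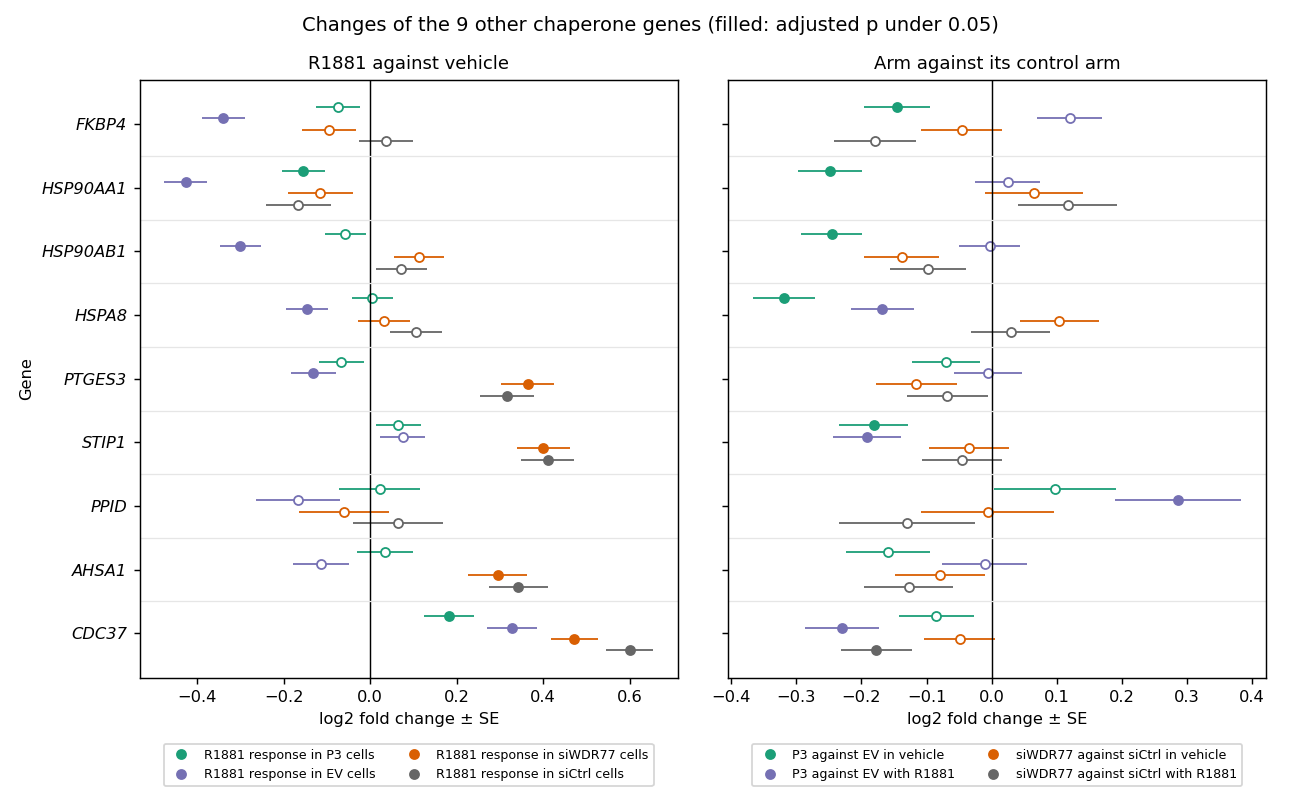
Log2 fold changes (points, with SE as bars) of the 9 members other than FKBP5, with R1881 against vehicle in each arm on the left and between arms on the right; filled points are called. With R1881 they stay between −0.43 and 0.60, where FKBP5, not drawn, gave 3.53 to 6.21.

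The other genes of the HSP90 and HSP70 systems were taken from 7 textbook lists that exclude the members. Some genes stand in several lists. Of all genes tested, R1881 raised 13% and lowered 7.96% in P3 cells, and 24.9% and 26.4% in EV cells. It raised 27.7% in siWDR77 and 25.7% in siCtrl cells, and lowered 4567 and 4542 of 17893 genes there. Of 26 further HSP90 co-chaperones, R1881 raised 3 and lowered 2 in P3 cells, raised 5 and lowered 10 in EV cells, raised 7 and lowered 6 in siWDR77 cells, and raised 8 and lowered 4 in siCtrl cells (7 and 4 without S35), with a median log2 fold change of −0.01, −0.10, 0.03 and 0.12 in that order of arms. Under library totals falls outnumbered rises in each arm (2 higher and 6 lower in P3, 2 and 18 in EV, 2 and 16 in siWDR77, 1 and 11 in siCtrl cells). ST13 (HIP), an HSP70 co-chaperone of the receptor cycle, rose in all 4 arms, by 0.21 ± 0.049 in P3, 0.38 ± 0.048 in EV, 0.41 ± 0.052 in siWDR77 and 0.37 ± 0.053 in siCtrl cells; under library totals the siRNA arms lost these calls (0.11 in each). CACYBP fell by 0.20 ± 0.061 in P3, 0.69 ± 0.062 in EV and 0.50 ± 0.079 in siWDR77 cells. The 2 organelle paralogs of HSP90 parted: HSP90B1 (GRP94, in the endoplasmic reticulum) rose in all 4 arms, 1.21-fold in P3, 1.46-fold in EV, 2.04-fold in siWDR77 and 2.10-fold in siCtrl cells, and TRAP1 (in mitochondria) fell by 0.49 ± 0.055 in EV and 0.31 ± 0.064 in siWDR77 cells, with −0.13 ± 0.055 in P3 and −0.07 ± 0.063 in siCtrl cells, neither called. P3 made the response smaller for HSP90B1 (−0.27 ± 0.069, adjusted p = 0.00284) and higher for TRAP1 (0.36 ± 0.078, adjusted p = 0.000385).

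Among 29 genes of the HSP70 system, R1881 raised 9 and lowered 2 in P3 cells, raised 14 and lowered 7 in EV cells, raised 21 and lowered 3 in siWDR77 cells, and raised 18 and lowered 3 in siCtrl cells, with or without S35, with medians of 0.09, 0.15, 0.32 and 0.36. Under library totals the counts were 6 higher and 5 lower in P3, 11 and 10 in EV, and 12 and 7 in each siRNA arm. Those with the smallest adjusted p work in the endoplasmic reticulum. DNAJB9 averaged 34.2 ± 1.56 CPM in P3_R1881 and 14.9 ± 1.58 in P3_vehicle (2.34-fold), and 52.6 ± 2.76 in EV_R1881 and 14.1 ± 2.05 CPM in EV_vehicle (3.77-fold). In study 2 it rose 7.49-fold in siWDR77 and 5.87-fold in siCtrl cells, and DNAJC3 rose 1.62-fold in P3, 2.53-fold in EV, 3.11-fold in siWDR77 and 2.79-fold in siCtrl cells. P3 lay below EV for HSPA5 (BiP, the HSP70 of the endoplasmic reticulum) both with R1881 (−0.51 ± 0.047, adjusted p = 7.93e-12) and with vehicle (−0.25 ± 0.047, adjusted p = 0.000219). P3 against EV called 1 of these 29 higher and 15 lower with R1881, and 0 higher and 8 lower with vehicle. Of all genes 18.1% were higher and 18.9% lower with R1881, and 7.93% and 7.88% with vehicle. Under library totals the 29 gave 5 higher and 11 lower with R1881, and 0 higher and 3 lower with vehicle.

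The heat shock list held HSF1, HSF2, HSBP1 and heat shock genes, some of them also in the HSP70 or co-chaperone list. Of its genes 14 were tested in study 1 and 12 in study 2. They gave 4 higher and 1 lower with R1881 in P3 cells and 6 and 2 in EV cells. In siWDR77 cells they gave 7 and 1, and in siCtrl cells 8 and 1 (7 and 1 without S35). The medians were 0.13, 0.06, 0.22 and 0.26 in that order of arms. Library totals gave 3 higher and 2 lower in P3 cells, 4 and 4 in EV cells, and 1 and 2 in either arm of study 2, with medians of 0.05 in P3, −0.11 in EV, −0.08 in siWDR77 and −0.0005 in siCtrl cells. HSPB1 (HSP27) averaged 335 ± 13.7 CPM in P3_R1881 and 245 ± 16.6 in P3_vehicle, and 511 ± 50.3 in EV_R1881 and 282 ± 17.2 CPM in EV_vehicle, called higher in both arms. BAG3 rose in all 4 arms, 1.14-fold in P3, 1.44-fold in EV, 1.59-fold in siWDR77 and 1.63-fold in siCtrl cells, the P3 call being lost under library totals (0.10, adjusted p = 0.202). The stress-inducible HSPA1A and HSPA1B did not pass the filter on low counts and were not tested.

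The folding enzymes related to FKBP5 did not share its size of response. Of the other FKBP genes (10 tested in study 1 and 11 in study 2), R1881 raised 2 and lowered 1 in P3 cells and raised 3 and lowered 3 in each of EV, siWDR77 and siCtrl cells (2 and 3 in siCtrl cells without S35), with medians of 0.06, 0.00389, 0.12 and 0.06. FKBP11, an FKBP of the secretory pathway, rose 1.26-fold in P3, 2.13-fold in EV, 2.31-fold in siWDR77 and 2.59-fold in siCtrl cells, and its response was smaller in P3 than in EV cells (−0.75 ± 0.133, adjusted p = 2.7e-05). FKBP9 fell by 0.31 ± 0.074 in P3, 0.95 ± 0.081 in siWDR77 and 1.2 ± 0.083 in siCtrl cells. Of 14 other cyclophilin genes, 1 rose and none fell in P3 cells, 3 rose and 7 fell in EV cells, 3 rose and none fell in siWDR77 cells, and 1 rose and 2 fell in siCtrl cells; PPIB, the cyclophilin of the endoplasmic reticulum, rose in all 4 arms (0.50 ± 0.058 in P3, 0.76 ± 0.058 in EV, 1.33 ± 0.068 in siWDR77 and 1.36 ± 0.069 in siCtrl cells). The 14 genes of the TRiC and prefoldin folding machines gave no call with R1881 in P3 cells, 0 higher and 6 lower in EV cells, 4 higher and 1 lower in siWDR77 cells, and 8 higher and 1 lower in siCtrl cells (6 and 1 without S35); under library totals they gave 0 higher and 5 lower in P3 cells, 0 and 11 in EV cells, 0 and 7 in siWDR77 cells, and 2 and 4 in siCtrl cells. The same scaling gave 1 FKBP gene higher and 2 lower in P3, 2 and 4 in EV, 1 and 5 in siWDR77 and 2 and 5 in siCtrl cells, and 1 cyclophilin gene higher and 5 lower in P3, 3 and 9 in EV, 2 and 8 in siWDR77 and 1 and 7 in siCtrl cells.

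**Figure D5:**
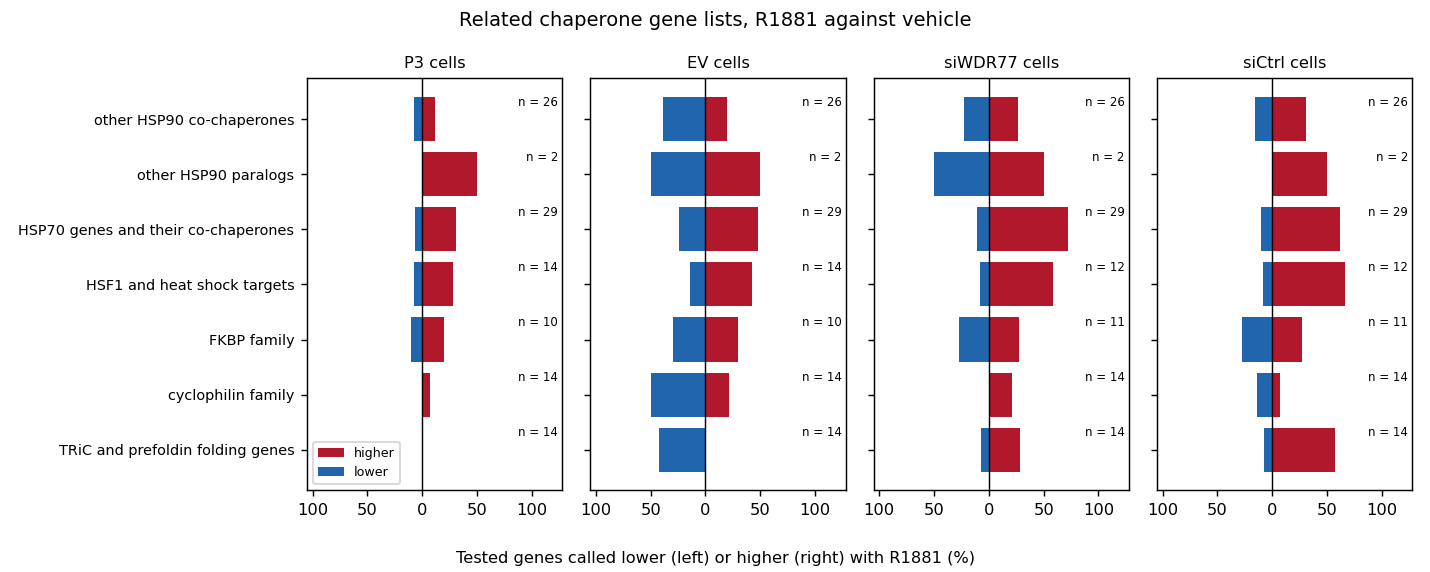
Share of tested genes called higher (right) or lower (left) with R1881 in 7 lists of related folding genes, for each of the 4 arms. Here n is the number of genes tested in a list, and some genes stand in several lists. In the HSP70 list 21 of 29 genes were higher in siWDR77 cells and 9 of 29 in P3 cells.

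Among all related genes, 1 HSP90 co-chaperone was called lower in siWDR77 than in siCtrl cells with both media: UNC45A, which serves myosin and HSP90, averaged 105 ± 2.03 CPM in siWDR77_R1881 and 154 ± 6.87 in siCtrl_R1881, and 110.0 ± 5.97 in siWDR77_vehicle and 149 ± 10.2 CPM in siCtrl_vehicle. The log2 differences were −0.55 ± 0.062 (adjusted p = 4.7e-06) with R1881 and −0.44 ± 0.061 (adjusted p = 0.000131) with vehicle, or −0.41 without S35. With R1881, 0 of the 26 further co-chaperones were higher and 6 lower, where 698 of all 17893 genes were higher and 593 (3.31%) lower. Among the 6 were RUVBL1 (−0.38 ± 0.079, adjusted p = 0.00419) and SGTA (−0.26 ± 0.057, adjusted p = 0.00669). TRAP1 (−0.32 ± 0.064, adjusted p = 0.00268) and HSF1 (−0.27 ± 0.062, adjusted p = 0.00889) were lower as well. FKBP5 stood above siCtrl without a call in the same libraries.

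The genes whose log2 CPM followed FKBP5 most closely over the 24 libraries, among 11189 genes compared, were SLC45A3 (Pearson r = 0.996), a prostate-specific transporter gene known to be induced by androgen, TUBA3D (0.995), ACSL3 (0.995), which activates long-chain fatty acids, SLC35F2 (0.995) and ELOVL7 (0.994), a fatty acid elongase. None of the 5 was among the 5 closest in study 1 alone or in study 2 alone, where their r still lay between 0.991 and 0.998. These values describe points that share hormone, arm and library, and TUBA3D is uncertain because near-identical tubulin genes can share its reads. None of these 5 was a chaperone gene, and among the members CDC37 came nearest to FKBP5 over the 24 libraries (r = 0.899; 0.779 in study 1 and 0.953 in study 2). STIP1 was next (0.727), with 0.306 in study 1 and 0.956 in study 2, and PTGES3 turned between the studies, at −0.619 and 0.902. HSP90AA1 ran against FKBP5 (−0.473; −0.815 in study 1 and −0.523 in study 2). HSP90AA1 was followed most closely by IMMT (0.919), which shapes mitochondrial cristae, and EEF1B2 (0.910), an elongation factor subunit; its 5 closest genes over the 24 libraries were likewise not among its 5 closest in either study alone. Its paralog HSP90AB1 followed it in study 1 (r = 0.966 over 12 libraries) and not in study 2 (−0.440 over 12 libraries).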

How the data were processed

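The authors deposited raw read counts per gene for 60649 features in 24 libraries; per the submitters' processing notes they used bcl2fastq 2.20, STAR 2.7.9a and featureCounts of Subread 1.6.4 on GRCh38.p7. How strand and reads with several alignments were handled, and which annotation was used, is not given in the sources used here. The names of 3 P3_R1881 columns carry the word siRNA, and these were matched to the titles by sample number. Depth was 16665915 to 24260446 counts. Libraries of a group were compared by a chi-square of their counts, and none was identical to another.

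Tests used edgeR 4.0.16 (R 4.3.3), with 1 fit per study over its 12 libraries. The fit took filterByExpr (17772 and 17893 genes kept), TMM scaling, group means as the design and robust quasi-likelihood F tests. Benjamini-Hochberg adjustment ran over all genes within each of the 10 comparisons, and not across comparisons. The SE comes from the F statistic, and 95% intervals are 1.96 SE either side. Levels are CPM on 1 TMM scaling of 24 libraries, except those of the cell type markers, which are CPM of library totals. Ratios were tested by exact two-sided permutation (scipy 1.17.1). On simulated counts the fit was tested before use. The alternatives were RLE scaling, library totals, no filter, DESeq2 1.42.0, all 24 libraries, only the 6 compared, the run of sample numbers as a replicate block (no label says that a run marks a shared culture or day; deviations correlated above 0.1 in all 3 runs for R1881 in P3 cells alone, at 0.197 to 0.307), other gene lengths and each library left out. The genes named are the members, WDR77, the 3 genes with the smallest adjusted p of each list and the 5 most like FKBP5 and HSP90AA1. The members and lists were chosen with earlier results of these data known; 1 further list is not reported here. S35 was singled out, and the promoter windows were chosen, after values were seen.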

Additional observations from a re-analysis of the deposited data

Results flagged for a closer look

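4 members responded to R1881 differently in P3 cells and in EV cells by the test of the difference itself (edgeR, adjusted over all genes). The log2 response of FKBP5 was lower in P3 cells by a difference of −1.54. The responses of FKBP4, HSP90AA1 and HSP90AB1 were shifted upward in P3 cells, by 0.27, 0.27 and 0.24. For the HSP90 genes P3 minus EV was −0.25 each in vehicle and 0.02 and −0.00282 with R1881, which library totals made −0.17 each and 0.18 and 0.16, whereas for FKBP5 they differed mainly with R1881 (−1.27, against 0.27 in vehicle). Library totals kept all 4 differences called, at −1.46 for FKBP5, 0.35 for FKBP4, 0.35 for HSP90AA1 and 0.32 for HSP90AB1. The fits share the EV libraries, so the 4 differences are not independent.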

How the results depend on the processing

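A member's value counted as kept when both fits called it in the same direction, or when neither called it, whatever its direction. STIP1 with R1881 in EV cells so counted as kept throughout, at −0.09 to 0.11 over the alternatives. Over the 10 comparisons, the 10 members' values were kept in 99 of 100 cases with DESeq2 and 99 with RLE scaling. They were kept in 97 with no filter and 94 with all 24 libraries in 1 fit. With only the 6 libraries compared 74 of 80 were kept, and with 1 library left out 692 of 720. Library totals kept 68 of 100 and reversed 9: HSP90AB1 (0.16), PTGES3 (0.15) and AHSA1 (0.15) for P3 against EV with R1881, FKBP4 (−0.23), HSP90AB1 (−0.19) and HSPA8 (−0.16) for R1881 in siCtrl cells, and HSP90AB1 (−0.18), HSPA8 (−0.27) and AHSA1 (−0.00199) in siWDR77 cells; the cause was not tested beyond the shift of the median gene. Members called with R1881 in P3 cells numbered 1 with all 24 libraries and 5 with library totals, against 3, and for siWDR77 against siCtrl with R1881 they numbered 2 with all 24 libraries, 0 with no filter and 3 with only 6, against 1. FKBP5 in P3 against EV with vehicle was 0.26 with all 24 libraries (adjusted p = 0.136), and in siWDR77 against siCtrl with R1881 it was 0.27 with only 6 (adjusted p = 0.0154). By longest transcript FKBP5 stood 4th per kb in P3_R1881. Genes called for siWDR77 against siCtrl with vehicle numbered 441 with DESeq2, 491 with all 24 libraries, 422 with no filter and 127 with only 6, against 273; for the change of the response by siWDR77 they numbered 54, 40 and 112, 1 with library totals and 16 with the replicate block, against 0. Deviations within a run of sample numbers correlated at −0.18 to 0.31 over the comparisons and above 0.1 in all 3 runs only for R1881 in P3 cells, where the replicate block changed no member's call. Over all comparisons the block kept 96 of 100 member values and added 4 calls, AHSA1 in P3 against EV with vehicle, FKBP4 in the same with R1881, HSPA8 in the change by P3 and HSP90AA1 with R1881 in siCtrl cells. Leaving out 1 library gave 1344 to 3124 genes for P3 against EV with vehicle, 91 to 478 genes and 0 to 1 members for siWDR77 against siCtrl with vehicle (478 without siCtrl_vehicle S35), 587 to 1097 genes and 0 members for the same with R1881, and 0 to 43 genes for the change by siWDR77 (43 without S35). With 3 libraries a group, leaving out 1 ended a call in 24 of the 720 member values and added one in 4. Most of the 720 had no call to lose, so 24 of 720 is not the share of calls lost. The smallest change that this depth can show was not measured.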
